A study of Mus musculus with 8 samples.

Results

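A set of 10 transcripts that mark heart macrophages was followed in hearts of *Rnaseh1* knockout and wild type mice. They were chosen by gene name from the 54508 genes of the expression table, and all 10 had enough reads to be tested among 17046 genes whose normalised count averaged at least 10 over the libraries. They fall into 4 general macrophage markers (*Adgre1*, *Csf1r*, *Cd68* and *Lyz2*), 4 markers of resident macrophages (*Mrc1*, *Cd163*, *Lyve1* and *Timd4*) and 2 markers of lipid-associated macrophages (*Trem2* and *Gpnmb*). The mice were C57BL/6, were 24 weeks old and, by the labels, had no treatment. In the knockout group (n = 4) exon 2 of *Rnaseh1*, the gene of an enzyme that removes RNA from RNA:DNA hybrids, was flanked by loxP sites and removed by a Cre recombinase under the muscle creatine kinase promoter (*Ckmm-cre*), which acts in heart and skeletal muscle. Macrophages are therefore not a cell type in which this Cre is placed to act. The labels call the other group (n = 4) wild type, while the study describes its control mice as carrying the floxed alleles without Cre, so effects of Cre and of losing RNase H1 cannot be told apart.

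Heart macrophages come from more than 1 source. Resident macrophages are largely seeded before birth, renew themselves in the tissue and carry scavenger and clearance receptors such as CD206 (*Mrc1*), CD163, LYVE1 and TIM4 (*Timd4*). Further macrophages arise from blood monocytes that enter through CCR2, mainly after injury. Macrophages that take up much lipid and cell debris, first described in fat and in atherosclerotic vessels, express TREM2 and GPNMB.

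Whole heart RNA was sequenced, so every value is an average over all cells of the heart, and more macrophages cannot be told apart from more marker RNA per macrophage. Values are normalised counts, that is read pairs per gene divided by the size factor of the library, and differences are given on the log2(normalised count + 1) scale as knockout minus wild type with the standard error (SE). A wild type library held 31810103 to 40715847 counted read pairs and a knockout library 27429878 to 30505752. *Rnaseh1* itself was at 129 to 158 in wild type mice, against 145 to 182 in knockout mice (log2 difference 0.23, adjusted p = 0.114). The whole-gene count was thus not lower in the knockout and gives no check of the genotype labels, and counts per exon were not analysed here. The knockout libraries were unequal. The root mean square log2 distance was 0.44 to 0.47 between wild type libraries and 0.33 between knockout replicates 1 and 2, but 0.71 and 0.68 between these and knockout replicate 3. Knockout replicate 4 lay between them, at 0.50 and 0.45 from replicates 1 and 2 and at 0.47 from replicate 3. Values without replicates 3 and 4, an alternative chosen after the data had been seen, are given for several of the markers and lists.

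In the knockout 7 of the 10 markers were higher and none was lower (limma, adjusted p below 0.05 over all genes tested). The groups did not overlap for 6 of them. None was lower at an unadjusted p below 0.05 or by edgeR or DESeq2 either, and the same holds for every list described below as having none higher or none lower. Without knockout replicates 3 and 4, 7 markers were higher and 1, *Lyve1*, was lower. Of all genes tested, 30.7% were called higher and 28.4% lower, and the groups were apart in 28.2% with the knockout higher and in 26.5% with the knockout lower, so that a raised marker was by itself a frequent event. The 2 lipid-associated markers had the largest differences, with a median on the log2 scale of 3.28, against 1.42 for the 4 general markers, 0.65 for the 4 resident markers and 0.02 for all genes tested. Only 218 of the 17046 genes, or 1.28%, had a log2 difference of 3 or more, and both *Trem2* and *Gpnmb* were among them.

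**Figure D1:**
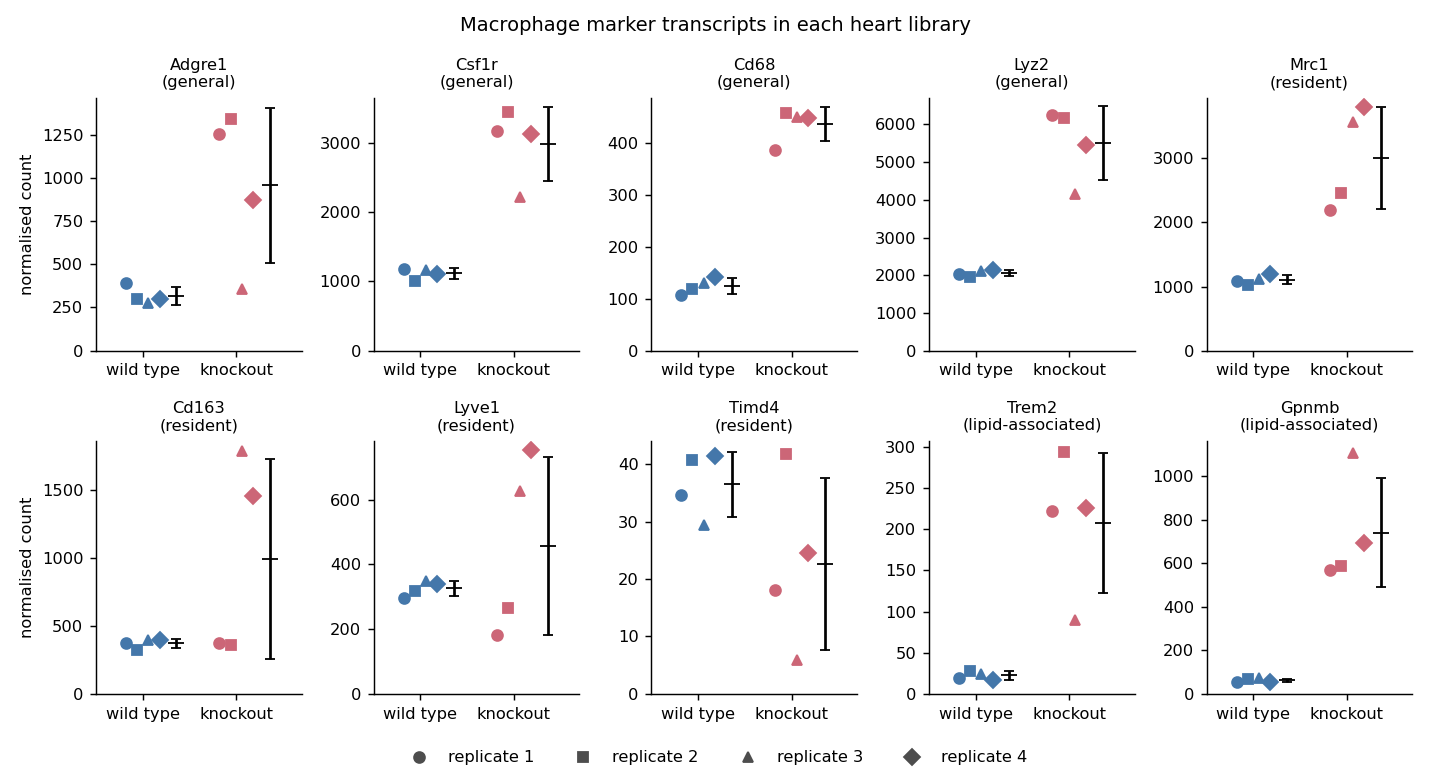
Normalised count of the 10 markers in each of the 8 heart libraries, with 1 panel per gene, an axis from 0 in each panel and 1 symbol per replicate number. Bars give the mean and SD of each group (n = 4). *Trem2* and *Gpnmb* lie far above wild type in every knockout library, whereas *Cd163* and *Lyve1* split the knockout libraries into a low pair (replicates 1 and 2) and a high pair (replicates 3 and 4).

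The general markers rose together. *Csf1r* (chr18:61105572-61132149, plus strand, GRCm38), which encodes the receptor for the macrophage growth factor CSF1, was measured at 1179, 1008, 1163 and 1112 normalised counts in wild type and at 3170.4, 3439, 2212 and 3130.2 in the knockout. Every knockout library was above every wild type library, and replicate 3 was the lowest of them. The log2 difference was 1.40 ± 0.12 (SE, adjusted p = 4.13e-06).

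*Lyz2* (chr10:117277331-117282321, minus strand) encodes the lysozyme of myeloid cells. It was at 2041, 1943, 2118 and 2146 in wild type and at 6241, 6172, 4146 and 5455 in the knockout, a log2 difference of 1.40 ± 0.12 (SE, adjusted p = 2.63e-06). Its order among the knockout libraries was close to that of *Csf1r*, with replicate 3 again lowest. The near-identical gene *Lyz1*, with which it can share reads, averaged 9.24 in wild type, against 15.4 in the knockout.

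*Cd68* (chr11:69664213-69666153, minus strand), which encodes a glycoprotein of macrophage lysosomes and endosomes, was the most even of the 10 among the knockout libraries. It stood at 107, 119.5, 129.8 and 142 in wild type and at 387, 458, 449 and 448 in the knockout. The log2 difference of 1.80 ± 0.11 (SE, adjusted p = 2.80e-07) was the largest of the general markers. Its log2 SD over the knockout libraries was 0.11, and only 25.1% of all genes tested had a smaller one.

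*Adgre1* (chr17:57358691-57483527, plus strand) encodes F4/80, the surface protein most often used to identify mouse macrophages. It was counted at 392, 298, 278 and 297 in wild type and at 1256, 1339, 355 and 873 in the knockout. The groups overlapped, because knockout replicate 3 lay below wild type replicate 1, while the other 3 knockout libraries were well above all wild type libraries. The log2 difference was 1.44 ± 0.35 (SE, adjusted p = 0.00503), and 1.86 without knockout replicate 3.

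Other genes listed for the whole macrophage population moved the same way. Of 18 such genes, all of them tested, 17 were higher and none was lower, with a median log2 difference of 1.96. The largest differences belonged to the integrin subunit gene *Itgam* (2.83 ± 0.31), *Ms4a7* (2.75 ± 0.29) and the cathepsin S gene *Ctss* (2.69 ± 0.09). Summed over the 18 genes, the level was 3644 to 3888 in wild type and 12293 to 14186 in the knockout. Knockout replicate 3 had the lowest sum of the knockout libraries, but it was more than 3 times every wild type sum, unlike its *Adgre1* count. *Itgam* itself was highest in replicate 3, at 116, 135, 278 and 239 in knockout replicates 1 to 4. The list is not limited to genes that only macrophages make, and the part of other blood cells in it was not tested. The cardiomyocyte markers fell in the same libraries, all 10 of 10 with a median log2 difference of -1.61, and their summed level went from between 1552779 and 1613659 in wild type to between 525010.2 and 628020 in the knockout. The part of this shift in the macrophage values was not tested.

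**Figure D2:**
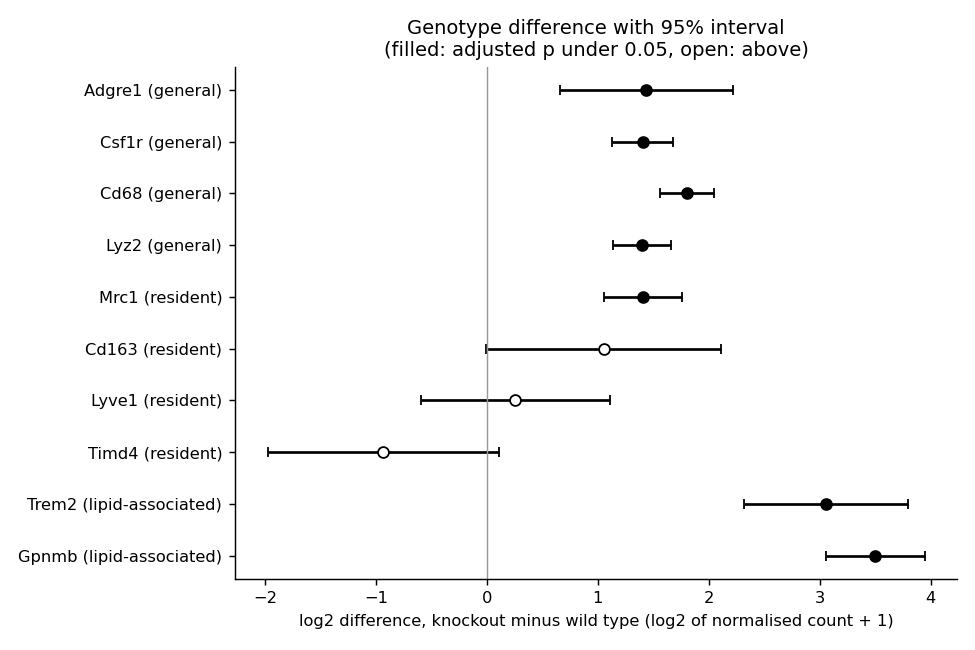
Log2 difference (knockout minus wild type) of each marker on the log2(normalised count + 1) scale, with the 95% interval of the limma fit. Filled points passed an adjusted p of 0.05 and open points did not. The general markers and *Mrc1* lie between 1.40 and 1.80, *Trem2* and *Gpnmb* at 3.06 and 3.5, and the intervals of *Cd163*, *Lyve1* and *Timd4* include 0.

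Of the lipid-associated markers, *Trem2* (chr17:48346401-48354147, plus strand) encodes a receptor for lipids, lipoproteins and cell debris that signals through the adaptor TYROBP. It was low in wild type, at 19.5, 28.3, 24.7 and 17.3 normalised counts from 10 to 23 read pairs per library, and reached 222, 293, 89.9 and 226 in the knockout. All knockout libraries were higher than all wild type libraries, and replicate 3 was the lowest of them. The ratio of the group means was 9.25, and the log2 difference was 3.06 ± 0.33 (SE, adjusted p = 1.96e-05).

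*Gpnmb* (chr6:49036546-49070929, plus strand) encodes a transmembrane glycoprotein of lysosomes and melanosomes. It was at 54.1, 67.8, 71.1 and 57.0 in wild type and at 571, 588, 1108 and 695 in the knockout. Again the groups were far apart, but here knockout replicate 3 was the highest library, the reverse of its place for *Trem2*. The ratio of the means was 11.9 and the log2 difference 3.5 ± 0.20 (SE, adjusted p = 1.67e-07). Without knockout replicates 3 and 4 the log2 difference was 3.20.

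*Gpnmb* is also made by pigment cells. Of 7 melanocyte and Schwann cell markers 3 had enough reads, with 1 higher, 1 lower and a median log2 difference of -0.46. *Mlana*, which encodes a melanosome protein, was higher by 1.45 ± 0.32, while *Sox10*, a transcription factor gene of neural crest derived cells, was lower, at -1.22 ± 0.23, and *Dct* (-0.46 ± 0.35), an enzyme gene of pigment synthesis, was not called. The summed level of the 7 genes was 108 to 162 in wild type and 131 to 181 in the knockout, and the part of such cells in the *Gpnmb* result was not tested.

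Promoters of *Trem2* and *Gpnmb*, the pair with the largest differences, are shown together with that of *Timd4*, the only marker with a lower mean in the knockout. Each runs from 250 bases before to 50 bases after the RefSeq transcription start (GRCm38.p6), 5′ to 3′ on the plus strand, and capitals mark matches to the motifs named after them. The windows are chr17:48346151-48346450 for *Trem2*, chr6:49036268-49036567 for *Gpnmb* and chr11:46810549-46810848 for *Timd4*.
Trem2: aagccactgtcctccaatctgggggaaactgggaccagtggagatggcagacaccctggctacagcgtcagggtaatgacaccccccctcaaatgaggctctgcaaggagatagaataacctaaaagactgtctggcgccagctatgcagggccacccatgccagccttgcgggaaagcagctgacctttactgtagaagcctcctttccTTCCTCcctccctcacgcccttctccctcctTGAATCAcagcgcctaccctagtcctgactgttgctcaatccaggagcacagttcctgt
Gpnmb: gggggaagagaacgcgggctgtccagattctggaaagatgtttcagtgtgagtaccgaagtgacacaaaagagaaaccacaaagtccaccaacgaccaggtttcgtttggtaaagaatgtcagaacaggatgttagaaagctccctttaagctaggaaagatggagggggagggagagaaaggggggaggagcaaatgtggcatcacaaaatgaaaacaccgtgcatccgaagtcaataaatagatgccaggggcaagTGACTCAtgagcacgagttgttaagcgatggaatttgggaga
Timd4: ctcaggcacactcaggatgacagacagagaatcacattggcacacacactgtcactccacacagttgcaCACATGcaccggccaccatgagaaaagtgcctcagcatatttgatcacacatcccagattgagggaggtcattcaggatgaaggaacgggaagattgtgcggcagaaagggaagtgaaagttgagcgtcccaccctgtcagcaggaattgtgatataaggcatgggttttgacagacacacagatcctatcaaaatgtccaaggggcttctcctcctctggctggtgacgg

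Promoters were listed for 7 of the 10 markers, and *Adgre1*, *Csf1r* and *Lyve1* were not among them. The windows were searched on both strands for 4 motifs. The AP-1 motif TGANTCA lay in the windows of *Trem2*, *Gpnmb* and *Cd68*, 3 of the 7, and in 7.81% of all 32851 promoters of this length. The hexamer GAGGAA, a core of sites for the myeloid factor PU.1, lay in those of *Trem2*, *Cd68* and *Mrc1* (28.3% of all promoters), written TTCCTC in the *Trem2* window because it lies on the other strand. The core CATGTG of the M-box, a motif of the MiT/TFE factors, lay in the windows of *Timd4* and *Mrc1* (14.2% of all promoters), written CACATG in the *Timd4* window. The E-box CACGTG lay in none of the 7 (7.15% of all promoters). A match is a run of letters only, and binding was not measured.

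Further genes of the lipid-associated program were mostly higher, 17 of the 21 tested, with 2 lower and a median log2 difference of 1.19. Without knockout replicates 3 and 4, 17 were higher and 3 lower, and the median was 0.86. *Lgals3*, the gene of galectin-3, had the largest difference and went from 78.2, 115.8, 68.0 and 63.9 in wild type to 4492, 4864, 5409 and 6325 in the knockout (6.03 ± 0.18). *Spp1*, the gene of osteopontin, was higher by 4.14 ± 0.53 and *Ctsk*, the gene of cathepsin K, by 2.54 ± 0.23. *Lpl* (-1.56 ± 0.16) and *Cd36* (-0.53 ± 0.19), which serve fatty acid uptake and are also made in quantity by other heart cells, were the 2 lower genes (*Cd36* was not called by edgeR, adjusted p = 0.0535), and *Fabp4* (-0.09 ± 0.22) and *Fabp5* (-0.09 ± 0.09) were not called. *Tyrobp*, the gene of the adaptor of TREM2, was higher by 2.16 ± 0.11. Whole heart RNA does not show which cells made the raised genes of this list either, *Lgals3*, *Spp1* and *Ctsk* included.

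*Gpnmb* is a target of the MiT/TFE transcription factors, which drive lysosome genes. All 16 genes listed for these factors and for lysosomes were tested, and 13 were higher and 3 lower, with a median log2 difference of 0.75. The factor genes themselves did not move as a group, since *Tfec* (1.87 ± 0.46) and *Tfe3* (0.77 ± 0.08) were higher and *Mitf* (-1.34 ± 0.12) and *Tfeb* (-0.63 ± 0.09) were lower. *Atp6v1h* and *Atp6v0d2*, for subunits of the proton pump that acidifies lysosomes, were higher by 2.71 ± 0.07 and 2.68 ± 0.73, the latter from at most 5.18 normalised counts in a wild type library. Without knockout replicates 3 and 4 *Atp6v0d2* was at 1.64 and no longer called (adjusted p = 0.115).

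Of the resident markers, only *Mrc1* (chr2:14229392-14332057, plus strand), which encodes the mannose receptor CD206, was higher in every knockout library. It was measured at 1081, 1030.1, 1114 and 1191 in wild type and at 2190.4, 2463, 3563 and 3798 in the knockout, with replicates 3 and 4 above replicates 1 and 2. The log2 difference was 1.41 ± 0.16 (SE, adjusted p = 2.78e-05) and lay among those of the general markers. Without knockout replicates 3 and 4 it was 1.07.

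*Cd163* (chr6:124304656-124330527, plus strand) encodes the receptor that clears complexes of haemoglobin and haptoglobin. It was at 373, 324, 394 and 397 in wild type, at 377 and 359 in knockout replicates 1 and 2, and at 1780.3 and 1455 in replicates 3 and 4. The first pair of knockout libraries thus lay inside the wild type range and the second pair far above it. The log2 difference was 1.05 ± 0.48 (SE, adjusted p = 0.0811, 95% interval -0.01 to 2.11) and missed the threshold in the limma fit. It passed in count models on the recovered reads (edgeR 1.41, adjusted p = 0.0292, DESeq2 1.41, adjusted p = 0.0284), without knockout replicate 1 (1.39, adjusted p = 0.0214) or without replicate 2 (1.42, adjusted p = 0.0181). It was 0.65 without replicate 3 and -0.01 without replicates 3 and 4 together.

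*Lyve1* (chr7:110850607-110863239, minus strand) encodes a hyaluronan receptor. It was at 296, 319, 348 and 340.1 in wild type and at 181, 267, 628 and 752 in the knockout, so that replicates 1 and 2 lay below all wild type libraries and replicates 3 and 4 above all of them. The log2 difference of 0.26 ± 0.38 (SE, adjusted p = 0.588, 95% interval -0.59 to 1.11) averaged libraries on both sides of wild type. It was -0.06 without knockout replicate 4, 0.03 without replicate 3 and 0.62 without replicate 1, and without replicates 3 and 4 together it was -0.56 and passed the threshold (adjusted p = 0.00325). *Lyve1* is made by lymphatic endothelium as well, and of the 7 lymphatic genes tested *Ccl21a* (-1.47 ± 0.21) and *Prox1* (-1.30 ± 0.13) were lower while *Pdpn* (1.36 ± 0.17) and *Sema3d* (0.51 ± 0.16) were higher. Without knockout replicates 3 and 4, 4 lymphatic genes were lower and 2 higher, and the median of the list went from 0.05 to -0.52. *Prox1* is also made by cardiomyocytes. The summed level of the lymphatic list was 5494 to 5986 in wild type and 3453 to 3951 in the knockout, where replicates 3 and 4 were not the highest, and its part in the *Lyve1* values was not tested.

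*Timd4* (chr11:46810800-46844332, plus strand), the gene of the phosphatidylserine receptor TIM4 of long-lived resident macrophages, had the lowest mean count over the 8 libraries. It was at 34.6, 40.7, 29.4 and 41.4 in wild type, from 19 to 33 read pairs per library, and at 18.1, 41.7, 5.86 and 24.6 in the knockout. Knockout replicates 1, 3 and 4 were below all wild type libraries and replicate 2 was just above them all, while replicate 3 held only 9 read pairs. The log2 difference of -0.93 ± 0.47 (SE, adjusted p = 0.111, 95% interval -1.98 to 0.11) missed the threshold. It passed without knockout replicate 2 (-1.31, adjusted p = 0.0240) and shrank to -0.43 without replicate 3.

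Of 17 further resident macrophage genes tested, 10 were higher and 1 was lower, with a median log2 difference of 0.68, which was 0.38 without knockout replicates 3 and 4. *Vsig4* (2.75 ± 0.24), a complement receptor gene, *Siglec1* (1.87 ± 0.14), the gene of the sialic acid receptor CD169, and *Ednrb* (1.80 ± 0.09), an endothelin receptor gene, had the largest differences. *Mgl2*, a lectin gene, was lower, at -1.74 ± 0.44. *Folr2*, the folate receptor gene often paired with *Lyve1* and *Timd4*, was at -0.26 ± 0.27 and was not called.

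**Figure D3:**
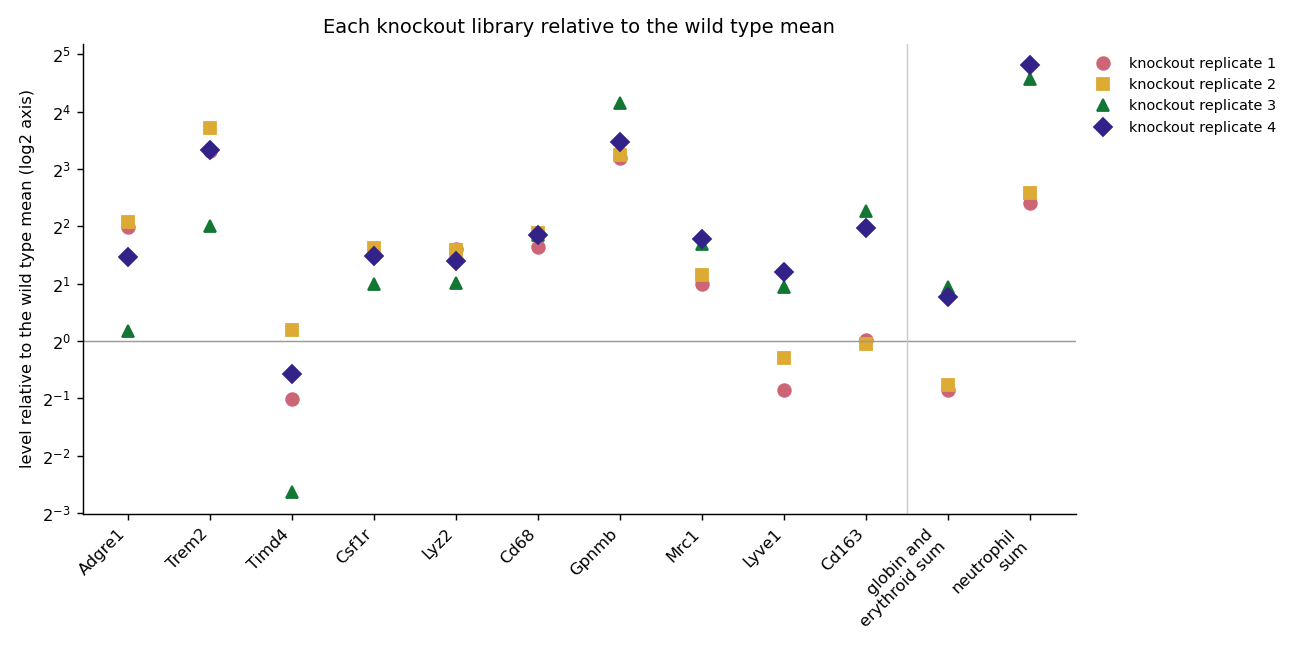
Level of each marker in each knockout library divided by the wild type mean, on a log2 axis, with the summed globin and erythroid genes and the summed neutrophil genes on the right. The horizontal line is the wild type mean. Replicate 3 is lowest for *Adgre1*, *Trem2* and *Timd4*, whereas replicates 3 and 4 are the 2 highest for *Cd163*, *Lyve1*, *Mrc1*, *Gpnmb* and both sums.

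The spread among the 4 knockout hearts was itself large for several markers. The log2 SD was 1.23 for *Cd163*, 1.11 for *Timd4*, 0.98 for *Lyve1*, 0.88 for *Adgre1* and 0.74 for *Trem2*, and 98.8%, 98.3%, 97.4%, 96.5% and 94.5% of all genes tested had a smaller one. In wild type the log2 SD of these genes lay between 0.10 for *Lyve1* and 0.31 for *Trem2*. The direction was not shared. Knockout replicate 3 was the lowest of the 4 for *Adgre1*, *Csf1r*, *Lyz2*, *Trem2* and *Timd4*, and the highest for *Cd163* and *Gpnmb*. As a share of *Adgre1*, *Cd163* was 95% to 142% in wild type but 30.0%, 26.8%, 501% and 167% in knockout replicates 1 to 4.

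Genes of other blood cells differed between the same libraries. Summed globin and erythroid genes were 10761 to 12783 in wild type, 6318 and 6777 in knockout replicates 1 and 2, and 21963 and 19453 in replicates 3 and 4, and none of the 5 genes was called between genotypes. Without replicates 3 and 4 all 5 were lower, with a median log2 difference of -0.81. Neutrophil genes summed to 48.1 to 66.1 in wild type, 302 and 340 in knockout replicates 1 and 2, and 1350.2 and 1593 in replicates 3 and 4. All 6 neutrophil genes tested were higher, with a median log2 difference of 4.06 (2.70 without knockout replicates 3 and 4), among them *Cxcr2* (4.49 ± 0.86) and *S100a9* (4.11 ± 0.67). *Mmp8*, a neutrophil collagenase gene, had no read in wild type and stood at 5.57, 5.38, 85.4 and 30.9 in the knockout, whereas the defining *Ly6g* averaged 0.43 in wild type, against 0.66 in the knockout. *Mmp8* thus passed the filter through its knockout counts alone, and *Ly6g* was too low to be tested. The tally of 6 higher was therefore partly set by the filter. The part of these other blood cells in the *Cd163*, *Lyve1*, *Mrc1* and *Gpnmb* values was not tested.

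The genes closest in pattern to each of 5 markers were sought among 17036 other genes by the root mean square difference of centred log2 values over the 8 libraries, as a description without a test. *Lyve1* was closest to *Slc45a3* (0.19), to the adult beta-globin gene *Hbb-bs* (0.21) and to *Alas2* (0.21), the erythroid enzyme of haem synthesis. *Cd163* was closest to *Hdc* (0.26), which makes histamine, *Aspg* (0.27) and the ceramidase gene *Acer2* (0.28). *Trem2* was closest to *Otub2* (0.26), *Lhfpl2* (0.28) and *Dio2* (0.29), the gene of a deiodinase that activates thyroid hormone. *Gpnmb* was closest to *Rasef* (0.19), *Star* (0.19) and *Map1b* (0.20), and *Timd4* to *Glb1l2* (0.30), *Gm11841* (0.32) and *Gamt* (0.33).

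To set the subsets against the size of the macrophage signal, each marker was divided by *Adgre1* within its library, a ratio that does not move with library scaling. Relative to *Adgre1*, 2 of the other 9 markers were higher and 2 were lower in the limma fit, against 1.89% of all genes higher and 69.5% lower. Being lower relative to *Adgre1* was therefore the usual case and being higher a rare one. In this fit the spread of *Adgre1* enters every ratio and the 9 markers received nearly the same SE, 0.48 to 0.55, whatever their own spread. Its p-values can therefore be too small for a marker whose ratio varied widely, and exact permutation p-values over the 70 assignments of the 8 libraries, whose smallest two-sided value is 0.0286, are given beside them, unadjusted for the 9 ratios formed per reference.

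*Trem2* was at 4.98% to 9.5% of *Adgre1* in wild type and at 17.7%, 21.9%, 25.3% and 25.9% in the knockout. The groups did not overlap, as in 1.6% of all genes with the knockout higher, and knockout replicate 3, whose *Trem2* count was lowest, was no longer apart. The log2 ratio was higher by 1.62 ± 0.49 (SE, limma adjusted p = 0.00280, exact permutation p = 0.0286). Against *Csf1r* the difference was 1.65 (exact permutation p = 0.0286), and against the mean of the 18 other pan-macrophage genes 1.14 (exact permutation p = 0.0571), where knockout replicate 3 fell inside the wild type range.

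*Gpnmb* was higher relative to *Adgre1* by 2.07 ± 0.48 (SE, limma adjusted p = 0.000104, exact permutation p = 0.0286). The log2 ratio had an SD of 1.32 over the knockout libraries, and an ordinary fit without moderation gave an adjusted p of 0.0476, close to the threshold. Against *Csf1r* it was at 4.59%, 6.72%, 6.11% and 5.12% in wild type and at 18%, 17.1%, 50.1% and 22.2% in the knockout, without overlap. The difference was 2.1 on the log2 scale against *Csf1r* and 1.58 against the pan-macrophage mean (exact permutation p = 0.0286 for both), where 1.47% of all genes were higher without overlap.

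*Timd4* was lower relative to *Adgre1*, with a log2 difference of -2.37 ± 0.55 (SE, limma adjusted p = 0.000106, exact permutation p = 0.0286), and the groups did not overlap, as in 38.8% of all genes with the knockout lower. As a share of *Csf1r* it went from 2.93%, 4.03%, 2.52% and 3.73% in wild type to 0.57%, 1.21%, 0.27% and 0.79% in the knockout. The difference was -2.34 against *Csf1r* and -2.85 against the pan-macrophage mean (exact permutation p = 0.0286 for both). Being lower was the usual case there too. Against *Csf1r*, limma called 14506 of 17045 genes lower, and against the pan-macrophage mean 89.1% of all genes were lower without overlap. Here knockout replicate 2, which was highest by normalised count, was below every wild type library too.

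*Lyve1* was lower relative to *Adgre1* in the limma fit, at -1.18 ± 0.49 (SE, adjusted p = 0.0249), but the groups overlapped, because knockout replicates 1 and 2 lay below all wild type libraries, replicate 4 inside their range and replicate 3 above it. The exact permutation p was 0.343 and the ordinary fit without moderation gave an adjusted p of 0.262. The call was lost without any 1 of wild type replicates 2, 3 and 4 or knockout replicates 1 and 2 (limma adjusted p of 0.0735, 0.0918, 0.0810, 0.299 and 0.178). It held without wild type replicate 1 (-1.33), without knockout replicate 3 (-1.83), without knockout replicate 4 (-1.48) and, in an ordinary fit, without both of the latter (-2.61, adjusted p = 0.00146). Against *Csf1r* the difference was -1.15 (limma adjusted p = 0.0102, exact permutation p = 0.0571). Against the mean of the 18 other pan-macrophage genes it was -1.66 (limma adjusted p = 0.000853, exact permutation p = 0.0286), where every knockout library was below every wild type library, as in 89.1% of all genes.

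*Cd163* and *Mrc1* had knockout libraries on both sides of wild type relative to *Adgre1*, with replicates 1 and 2 below and replicates 3 and 4 above all wild type libraries. *Cd163* was at -0.38 ± 0.49 (limma adjusted p = 0.471) and *Mrc1* at -0.03 ± 0.51 (limma adjusted p = 0.958). Without knockout replicate 3, limma called both lower (*Mrc1* -0.54, adjusted p = 0.0309, and *Cd163* -1.21, adjusted p = 2.10e-06), although replicate 4 lay above all wild type libraries. These p-values can be too small for ratios that varied so widely, and no ordinary fit or permutation was run without replicate 3 alone. The count of lower markers went from 2 to 4, where limma called 15377 of 17045 genes lower. Without replicates 3 and 4 together, *Cd163* was at -2.06 (adjusted p = 0.00127) and *Mrc1* at -0.97 (adjusted p = 0.00916) in an ordinary fit. *Csf1r* (-0.03 ± 0.51), *Lyz2* (-0.04 ± 0.51) and *Cd68* (0.37 ± 0.48) stayed close to *Adgre1* on average and were not called.

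**Figure D4:**
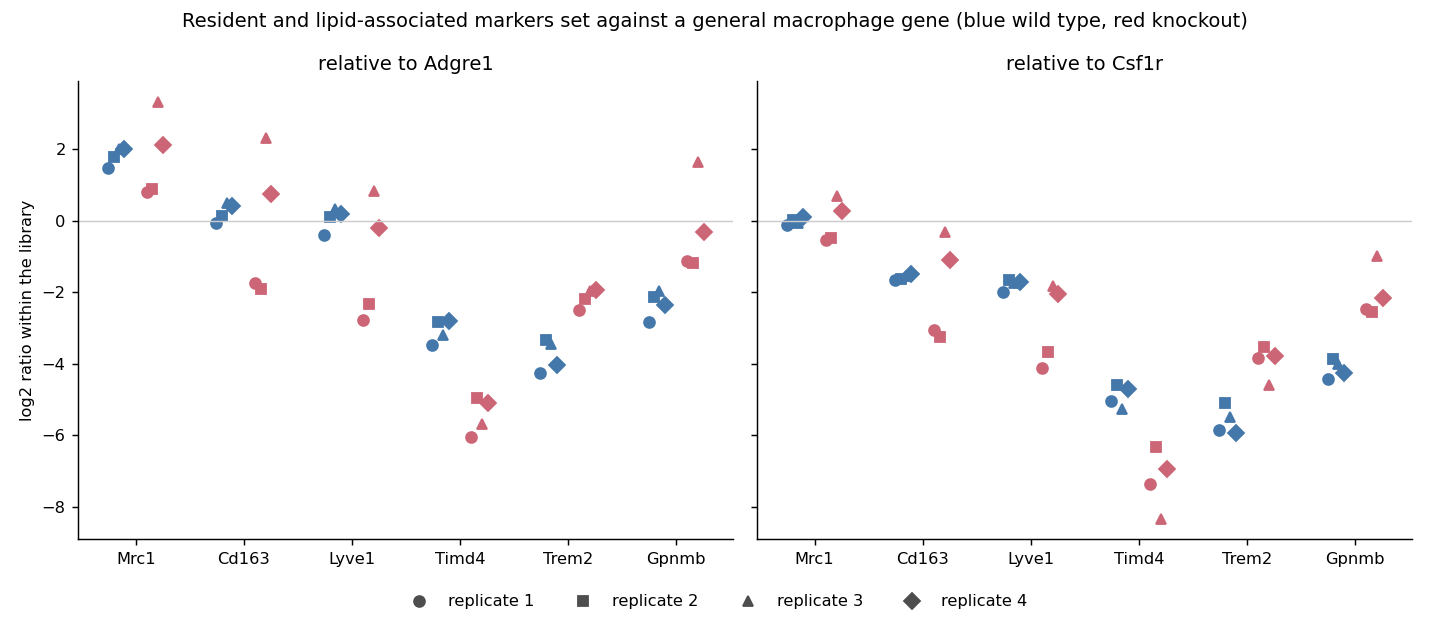
Log2 ratio of the resident and lipid-associated markers to *Adgre1* (left) and to *Csf1r* (right) within each library, wild type in blue and knockout in red, with 1 symbol per replicate number. *Timd4* is lower and *Trem2* and *Gpnmb* are higher in all 4 knockout libraries against both reference genes, whereas *Mrc1*, *Cd163* and *Lyve1* are widely spread in the knockout.

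Compared with each other per kilobase of the principal transcript, *Lyz2* was the most abundant marker in both genotypes, at 1567 ± 69.1 normalised counts per kilobase (SD, n = 4) in wild type, against 4182 ± 739 in the knockout. *Csf1r* (237 ± 16.4) and *Mrc1* (205 ± 12.6) followed in wild type, then *Lyve1* (113 ± 8.0), *Cd68* (101 ± 12.1), *Adgre1* (97.7 ± 15.9) and *Cd163* (84.5 ± 7.66), where the gap between neighbours in the order was smaller than the larger of their SDs. *Trem2* (20.7 ± 4.60), *Gpnmb* (16.9 ± 2.22) and *Timd4* (16.8 ± 2.61) were lowest and did not differ beyond their spread. In the knockout *Csf1r* (636 ± 114) and *Mrc1* (559 ± 148) still followed *Lyz2*, then *Cd68* (354 ± 26.6) and *Adgre1* (295 ± 139), and *Gpnmb* (200.2 ± 67.9) and *Trem2* (191 ± 78.3) had reached the levels of *Cd163* (225 ± 167) and *Lyve1* (158 ± 95.5), from which they did not differ beyond the spread. *Timd4* was left alone at the bottom, at 10.4 ± 6.88.

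Monocyte genes rose with the general markers. Of 10 tested genes of monocytes and CCR2 macrophages 8 were higher and none was lower, with a median log2 difference of 2.42. *Ccr2*, the receptor through which monocytes enter tissue, was higher by 2.37 ± 0.23, *Chil3* by 4.23 ± 1.15, the interleukin 1 beta gene *Il1b* by 4.05 ± 0.47 and the chemokine receptor gene *Ccr1* by 3.77 ± 0.42. *Chil3* was uneven, at 4.87, 15.5, 390 and 124 in the knockout and no more than 4.63 in any wild type library, and without knockout replicates 3 and 4 it was at 1.98 and not called (adjusted p = 0.0562). The list again had 8 genes higher without those libraries, with a median of 2.12. *Cx3cr1*, the fractalkine receptor gene, missed the threshold in limma (1.63, adjusted p = 0.0911) and passed in edgeR (2.29, adjusted p = 0.0143) and DESeq2 (2.28, adjusted p = 0.00577). All 5 tested genes of CSF1 receptor ligands and of related cytokine receptors were higher as well, with a median of 1.35, led by the receptor genes *Csf2rb* (3.17 ± 0.24), *Csf3r* (2.87 ± 0.31), which is also on the neutrophil list, and *Csf2ra* (1.35 ± 0.12).

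Among the fibroblast markers, 5 of 8 were higher and 1 was lower, with *Postn* at 3.16 ± 0.20, *Col1a1* at 2.49 ± 0.12 and *Col1a2* at 2.27 ± 0.09 above and *Gsn* at -0.71 ± 0.10 below. Of 8 blood endothelial markers 1 was higher (*Vwf*, 1.22 ± 0.24) and 2 were lower (*Kdr*, -0.70 ± 0.26, and *Tie1*, -0.24 ± 0.06). *Kdr* was not called by edgeR (adjusted p = 0.0761) or DESeq2 (adjusted p = 0.0957), and was at -0.13 without knockout replicates 3 and 4. Library scaling bears on all these directions. With equal totals of nuclear genes per library the median of all genes rose by 0.23 and 7355 genes were called higher and 3267 lower, in place of 5241 and 4839. With equal totals of all genes, mtDNA-encoded ones included, the median rose by 1.44 and 14952 genes were called higher. Relative to these shifts the difference of *Trem2* was 3.05 and 3.03 and that of *Gpnmb* 3.5 under both, close to the values above, while *Timd4*, at 0.45 with equal totals of all genes (adjusted p = 0.390), was at -0.99 relative to the shift.

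**Figure D5:**
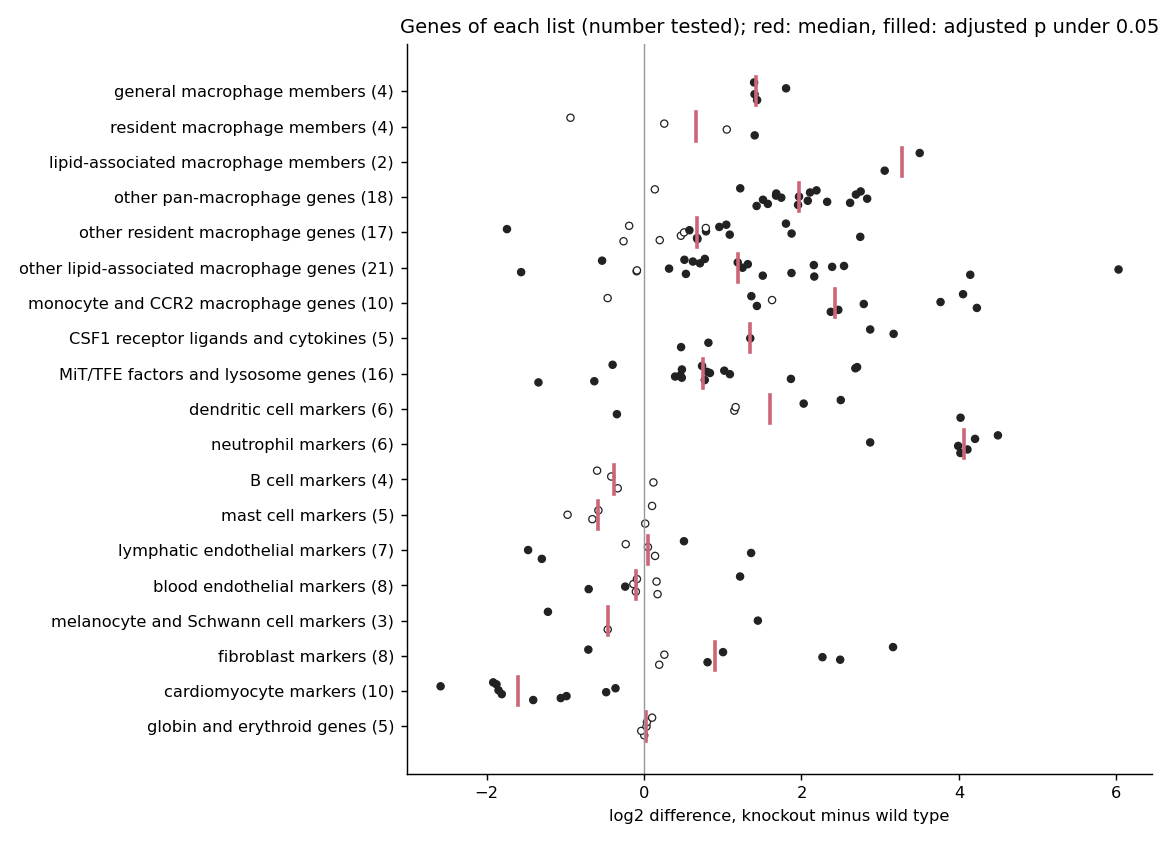
Log2 difference (knockout minus wild type) of every tested gene of each list, with the number tested in brackets. The list of T and NK cell markers is not shown. Filled points passed an adjusted p of 0.05, open points did not, and red bars are list medians. The lipid-associated markers have a median of 3.28, the neutrophil markers of 4.06 and the cardiomyocyte markers of -1.61, and the globin and erythroid genes cluster around 0.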

How the data were processed

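Total RNA from the hearts of 4 wild type and 4 *Rnaseh1* knockout mice went into paired-end TruSeq libraries. The authors aligned the reads to mm10 with HISAT2 2.10 and used featureCounts 1.6.3, with strand, to assign pairs to Ensembl GRCm38 genes and an in-house set of mitochondrial genes (versions from the study's methods and the submitters' processing notes). Per gene and library the deposited table gives a normalised signal, the count after division by the size factor from DESeq2 1.18.1 (R 3.5.1), and 100% of them came out as whole reads within 0.01 once the worth of 1 read was found. The authors' own comparison (log2 fold changes and p-values) was not used. Read pairs on nuclear genes numbered 11896021 to 16213429 per wild type library and 24835342 to 27146119 per knockout library. Precision of rare transcripts follows the read pairs given beside them, which speak to counting error alone, as reads copied by PCR are not separate molecules.

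Genes whose normalised count averaged at least 10 over the libraries (17046) were tested on log2(normalised count + 1) with limma-trend (limma 3.58.1, R 4.3.3), with genotype as the only term, two-sided, and Benjamini-Hochberg adjustment at 0.05 over all of them. The pseudocount of 1 understates changes of rare transcripts. The filter averages over both groups, so genes nearly absent in wild type could pass through their knockout counts alone and be called higher. The design had foreseen a count test only for whole counts, so edgeR 4.0.16 and DESeq2 1.42.0 on the recovered reads were alternatives. Ratios to *Adgre1* were tested in the same way, with an ordinary fit and exact permutation added. Groups and replicate numbers came from the labels. Each group's 4 samples are labelled as separate replicates, so p-values measure the spread between these samples. No 2 libraries agreed within sampling noise. Same-numbered libraries did not deviate together (correlations 0.04, -0.07, 0.01 and -0.04). Named genes were all 10 members, up to 3 genes with the largest called difference of each list, and the 3 genes nearest in pattern to 5 members, and others named with them were chosen after their values were seen. The members and lists were chosen with earlier results of these data known, and the globin and erythroid list was added after the values had been seen. Positions are those of the deposited table (GRCm38), lengths per kilobase are of the APPRIS principal transcript in GENCODE M21, and promoters are from RefSeq (GRCm38.p6). The scripts were tested on simulated data. A gene of the melanocyte and Schwann cell list is not reported here.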

Additional observations from a re-analysis of the deposited data

Results flagged for a closer look

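In 98 groups of 4 libraries (49 genes named here in 2 genotypes) the most extreme library was compared with its nearest neighbour as a share of the group's range, and 4 groups exceeded Dixon's 95% critical value, where chance alone gives about 1 in 20. *Cd68* in the knockout had a share of 0.859, because replicate 1 (387) lay below the other 3 libraries (448 to 458), while remaining above every wild type library. *Ccl21a* in wild type had 0.852, with replicate 4 (223) below the others (269 to 277). *Col1a1* in wild type had 0.903, with replicate 1 (1052) above the others (925 to 938). *Myl2* in wild type had 0.886, with replicate 2 (131292) below the others (145038 to 146807).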

How the results depend on the processing

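Of 470 values recomputed under alternatives, 409 were scored as unchanged. For a gene this meant the same direction and side of the threshold. For a count of markers or genes the band was wide, and 7355 genes higher against 5241 still scored as unchanged. Among the 409 was every value of *Adgre1*, *Csf1r*, *Cd68*, *Lyz2*, *Mrc1*, *Trem2* and *Gpnmb* in the genotype comparison (18 alternatives each). The cause of the other changes was not tested. A fit with replicate number as a block called *Cd163* higher (1.05, adjusted p = 0.0401) and changed no other call of a marker, although the numbers do not pair the libraries. Equal totals of all genes called 14952 genes higher and 567 lower, turned *Timd4* to 0.45 and called *Lyve1* (1.7) and *Cd163* (2.49) higher, which relative to the median shift of 1.44 were at -0.99, 0.26 and 1.05, and equal totals of nuclear genes called *Cd163* higher (1.28, adjusted p = 0.0376). Leaving out 1 library at a time gave 7 to 8 markers higher and 0 to 1 lower (*Timd4*), with *Lyve1* from -0.060 to 0.62. Leaving out knockout replicates 3 and 4 together gave 1 marker lower (*Lyve1*, -0.56) and *Cd163* at -0.013. Relative to *Adgre1*, leaving out 1 library gave 1 to 4 markers lower, where 8375 to 15377 of 17045 genes were called lower. *Csf1r* then ranged from -0.31 to 0.12, *Cd68* from -0.066 to 0.61, *Lyz2* from -0.33 to 0.12, *Mrc1* from -0.54 to 0.30 and *Cd163* from -1.21 to 0.20. The number of markers lower relative to *Adgre1* was 1 with a minimum of 50, which left *Timd4* untested (9475 of 13084 genes lower). It was 1 in the ordinary fit (8642 of 17045 genes lower). In an ordinary fit without knockout replicates 3 and 4 it was 5 (*Cd68* -0.29, 15096 of 17045 genes lower). It was also 5 against the mean of the other pan-macrophage genes (*Cd68* -0.11). Against that mean *Csf1r* (-0.51, limma adjusted p = 0.000307), *Lyz2* (-0.52, 0.000321) and *Mrc1* (-0.51, 0.0120) were among the lower markers, where limma called 15675 of 17046 genes lower. Genes higher in the ratio numbered 553 against *Csf1r* (*Mrc1* 0.0020), 205 in the ordinary fit and 178 without replicates 3 and 4. *Trem2* and *Gpnmb* were higher and *Timd4* was lower in the ratio under every alternative that tested them. Depth limits *Trem2* and *Timd4* most, with 10 to 23 and 19 to 33 read pairs in wild type libraries.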

Other observations

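None of the 4 B cell markers tested was called by limma (median log2 difference -0.38), and none of the 5 mast cell markers was (median -0.58), with the stem cell factor receptor gene *Kit* at 0.02 ± 0.27. The counts were also 0 at an unadjusted p below 0.05 and by edgeR and DESeq2, while without knockout replicates 3 and 4 *Cd79b* (1.03, adjusted p = 0.0228) and *Kit* (0.54, adjusted p = 0.0107) were called higher by limma. Of 8 T and NK cell markers only *Cd4* had enough reads, and it was higher by 0.74 ± 0.26 in limma (adjusted p = 0.0324) and just missed the threshold in DESeq2. Summed B cell markers were 223 to 274 in wild type and 307, 324, 63.2 and 196 in knockout replicates 1 to 4, and summed mast cell markers were 198 to 253 in wild type and 283, 315, 133.6 and 159.5 in the knockout. Knockout replicate 3, which was lowest for *Adgre1* and *Timd4*, was lowest for both sums as well.

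Dendritic cell markers were divided. *Flt3*, the receptor gene for a dendritic cell growth factor, was at 1.5, 4.93, 3.09 and 0 in wild type and at 46.6, 42.4, 41.7 and 46.7 in the knockout (4.02 ± 0.50), without overlap. *Ccr7* (2.50 ± 0.79) and *Cd209a* (2.03 ± 0.45) were higher too, and *Zbtb46* was lower (-0.34 ± 0.11), but not without knockout replicates 3 and 4 (-0.16, adjusted p = 0.0892). *Xcr1* (1.15 ± 0.73) and *Clec9a* (1.16 ± 0.55) missed the threshold in limma and edgeR and were higher in DESeq2 (adjusted p of 0.0393 and 0.0323), and in limma without those libraries (2.39 and 2.08).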
